A study of Mus musculus with 6 samples.

Results

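The nephron progenitor genes examined here were Six2, Cited1, Meox1, Eya1, Osr1, Sall1 and Crym, taken by symbol as 7 of the 24532 genes in the expression table. All 7 passed the filter on low counts in every comparison. RNA was sequenced from mouse kidney and ureter at PN1, the first day after birth, in 6 libraries. Kidney was represented by 2 libraries of each genotype and ureter by 1 of each. In the Ahnak KO mice exon 5 of Ahnak, which encodes a large scaffold protein, was disrupted. The strain was not stated in the sources used here, and no other allele or treatment was named. For RNA, 2 to 4 kidneys or ureters were collected, and the number in each library was not given. The titles of both ureter samples name the kidney, while their tissue labels and their column names name the ureter.

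Nephrons arise from the cap mesenchyme, a population of progenitor cells that surrounds the tips of the branching ureteric bud. These cells either renew themselves or, in response to WNT signals from the bud, turn into epithelium and form the tubule and the glomerulus. In the mouse this pool is used up within days of birth, so a kidney at PN1 still holds progenitors beside differentiated nephrons, while the ureter forms no nephrons. Six2 is a homeobox factor that keeps progenitors undifferentiated, and Eya1 is a phosphatase that acts as a co-activator of Six2 and its relatives. Osr1 and Sall1 are zinc finger factors of the early nephrogenic mesenchyme. Cited1 is a CBP/p300-binding transactivator of the least committed progenitors, Meox1 is a homeobox factor, and Crym encodes mu-crystallin, a thyroid hormone-binding protein.

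In the RefSeq annotation of GRCm38, Six2 lies at chr17:85662736-85688254 and Cited1 at chrX:102247378-102252181. Sall1 lies at chr8:89027242-89044162, where its locus overlaps that of the noncoding gene Gm3134, which was not analysed here. Eya1 lies at chr1:14168953-14311035, Meox1 at chr11:101877510-101894354, Osr1 at chr12:9574442-9581500 and Crym at chr7:120186380-120201989. All 7 are annotated as protein-coding, and the counts cover whole genes. RefSeq promoter windows were at hand for 3 of the 7 genes, Six2, Cited1 and Sall1, and for that reason their sequences are shown. These are also the 3 genes whose ureter levels differed more than 2-fold between genotypes on the log2(CPM + 0.5) scale used below. A link between those levels and the sequences was not tested.

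The 250 bases before the first annotated start are given for each of these genes, 5′ to 3′ on the minus strand of GRCm38.p6. They are chr17:85688255-85688504 for Six2, chrX:102252182-102252431 for Cited1 and chr8:89044163-89044412 for Sall1. Capitals mark matches on either strand to the general promoter motifs TATAAA for the initiation complex, CCAAT for nuclear factor Y and GGGCGG for Sp1, which read ATTGG for the second and CCGCCC for the last on the other strand.
Six2: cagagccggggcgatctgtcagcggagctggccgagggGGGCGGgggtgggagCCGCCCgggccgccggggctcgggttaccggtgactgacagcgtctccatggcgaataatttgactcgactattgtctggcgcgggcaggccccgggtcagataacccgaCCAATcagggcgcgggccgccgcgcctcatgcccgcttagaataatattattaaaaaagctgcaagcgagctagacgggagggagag
Cited1: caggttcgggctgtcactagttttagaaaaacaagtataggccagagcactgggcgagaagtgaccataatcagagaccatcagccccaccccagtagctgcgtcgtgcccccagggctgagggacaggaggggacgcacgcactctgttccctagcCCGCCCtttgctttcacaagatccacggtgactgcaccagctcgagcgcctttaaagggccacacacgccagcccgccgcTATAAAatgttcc
Sall1: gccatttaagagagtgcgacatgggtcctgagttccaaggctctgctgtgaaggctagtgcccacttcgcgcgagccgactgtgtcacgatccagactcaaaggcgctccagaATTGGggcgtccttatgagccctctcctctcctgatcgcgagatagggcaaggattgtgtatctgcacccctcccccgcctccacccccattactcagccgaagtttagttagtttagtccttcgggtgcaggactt
In Six2, CCAAT began 87 bases before the start and GGGCGG at 212 and, on the other strand, 197 bases before it. In Cited1, TATAAA began 13 bases before the start and GGGCGG, on the other strand, 93 bases before it. The Sall1 window shown held 1 match, to CCAAT on the other strand, 137 bases before the start. Cited1 and Sall1 each had 3 windows, of which only the first is shown. Of those not shown, Cited1 held TATAAA and CCAAT in window 2 and no match in window 3. Sall1 held GGGCGG in windows 2 and 3. TCAGGTT, a core bound by factors of the Six2 family, and the homeobox motif TAATTA were not found in the 3 windows shown. Of all 32851 promoter windows of this length, 33.8% held CCAAT, 32.7% GGGCGG, 12.4% TATAAA, 3.49% TCAGGTT and 4.84% TAATTA. The motifs overlap each other at no place in the windows shown. In the windows shown, GC content was 64.8% for Six2, 58.0% for Cited1 and 56.4% for Sall1, beside a median of 52.4% over all windows. It was 57.2% and 65.2% in the other Cited1 windows and 74.4% and 78.4% in those of Sall1. A match describes the letters only.

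The libraries held 36410246 to 66095616 estimated counts. The tissue labels were checked with marker genes, and the gene in brackets is the highest of its list in kidney. Urothelium markers (highest Upk3a) summed to 85.1 to 103 TPM, expression scaled for gene length and depth, in kidney and to 7862 in the Ahnak KO and 8492 in the WT ureter, and smooth muscle markers (highest Acta2) to 443 to 544, 4355 and 5685 TPM. Proximal tubule markers (highest Slc34a1) summed to 329 to 486 TPM in kidney and to 1.07 and 1.02 TPM in the Ahnak KO and WT ureters. Loop and distal tubule markers (highest Slc12a1) gave 278 to 361, 0 and 2.62 TPM, podocyte markers (highest Podxl) 242 to 311, 40.6 and 37.4 TPM, collecting duct markers (highest Aqp2) 609.7 to 784, 472 and 372 TPM, and ureteric mesenchyme markers (highest Tbx2) 112 to 126, 161 and 218 TPM, in the same order. Most of the collecting duct sum in the ureters was Aqp3, at 437.8 TPM in the Ahnak KO and 315.8 TPM in the WT ureter. Aqp3 was at 75.9 to 97.8 TPM in kidney, while Aqp2 was listed at 0 in both ureters. The loop and distal tubule sum in the WT ureter was Pvalb alone, with 76 counts there and 0 to 14 in kidney. Adrenal cortex markers (highest Star in kidney and Cyp11a1 in both ureters) reached at most 3.89 TPM in any library. Ahnak KO kidney replicate 1 stood apart, with 363 TPM of Xist and 0 on 4 Y chromosome genes, while the other 5 libraries had at most 0.0673 TPM of Xist and 139.7 to 172 TPM of the Y genes. It also listed 7755 genes at 0, beside 6415 to 6706 in the other kidney libraries. The level of Ahnak itself was 139 and 129.7 CPM, counts scaled to library size, in Ahnak KO kidneys, 183 and 188 in WT kidneys, 642 in the Ahnak KO ureter and 733 in the WT ureter. In TPM, Ahnak was at 20.6 and 22.1 in Ahnak KO kidneys, 27.7 and 24.7 in WT kidneys, 88.0 in the Ahnak KO and 77.5 in the WT ureter. The direction between the ureters thus depended on the measure. A count over the whole gene does not check a disruption of 1 exon.

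A value of 0 in this table was read as "listed at 0", not as the absence of reads. Of 11816 genes with at least 300 counts in every kidney library, 176 were listed at 0 in the Ahnak KO ureter and 11 at 1 to 5 counts. In the WT ureter these were 164 and 6 genes. Low estimates thus fell on 0 more often than on the smallest counts, and no lower limit of a fold change is given against a 0. Among genes with at least 50 counts in each of the other 5 libraries, 51 were listed at 0 in the Ahnak KO ureter alone. For the WT ureter the number was 8. Six2 was among the 51, as were Uncx and Pou3f3, which are described below. The Ahnak KO ureter also had the fewest counts, 36410246 beside 54985927 in the WT ureter. The part of depth in these zeros was not tested.

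Expression levels of the 7 genes in kidney were compared per length, in TPM. Cited1 had the highest level, at 138 and 137 TPM in the 2 WT kidneys and 130.1 and 132 TPM in the 2 Ahnak KO kidneys. Six2 followed at 103 and 125 TPM in WT and 120.4 and 98.6 TPM in Ahnak KO kidneys. Sall1 was next, at 79.6 and 95.0 TPM in WT and 83.1 and 74.2 TPM in Ahnak KO kidneys. The progenitor transactivator and the self-renewal factor therefore stood above the zinc finger factor in every kidney library. Crym lay at 52.2 and 55.6 TPM in WT and 54.1 and 55.6 TPM in Ahnak KO kidneys, and Eya1 at 38.2 and 42.8 TPM in WT and 32.9 and 38.0 TPM in Ahnak KO kidneys. Meox1 had 25.7 and 23.4 TPM in WT and 29.8 and 27.9 TPM in Ahnak KO kidneys. Osr1 was lowest, at 15.6 and 21.0 TPM in WT and 17.3 and 16.2 TPM in Ahnak KO kidneys. This order was the same in all 4 kidney libraries, and for each of the 6 pairs of neighbours the lowest value of the higher gene lay above the highest value of the lower gene. By ratio the closest pairs were Cited1 and Six2 (130.1 against 124.9 TPM) and Six2 and Sall1 (98.6 against 95.0 TPM).

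Across the 4 kidney libraries, genotypes together, the levels of the 7 genes varied little. The coefficient of variation in TPM was 2.85% for Cited1, 2.99% for Crym and 10.3% to 13.8% for the other 5 genes, with Osr1 the most variable. The mean levels were 134 ± 3.83 TPM for Cited1 and 112 ± 12.9 TPM for Six2 (SD, n = 4). The summed level of the 7 genes was 452 and 500.2 TPM in WT and 468 and 443 TPM in Ahnak KO kidneys. In bulk tissue, fewer cells of a type and less RNA per cell cannot be told apart.

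The ureter libraries had a different order. In the WT ureter Osr1 led with 75.5 TPM, followed by Meox1 with 6.79, Crym with 2.50, Six2 with 0.878, Cited1 with 0.710, Eya1 with 0.678 and Sall1 with 0.411 TPM. In the Ahnak KO ureter Osr1 led with 52.9 TPM, followed by Cited1 with 7.74, Meox1 with 6.04, Crym with 1.80, Eya1 with 0.236 and Sall1 with 0.0587 TPM, and Six2 was listed at 0. Osr1 and Meox1, which were the lowest 2 genes in kidney, were thus among the highest 3 in each ureter library. With 1 ureter library per genotype, neighbours in these orders have no replicate spread to be compared with.

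**Figure D1:**
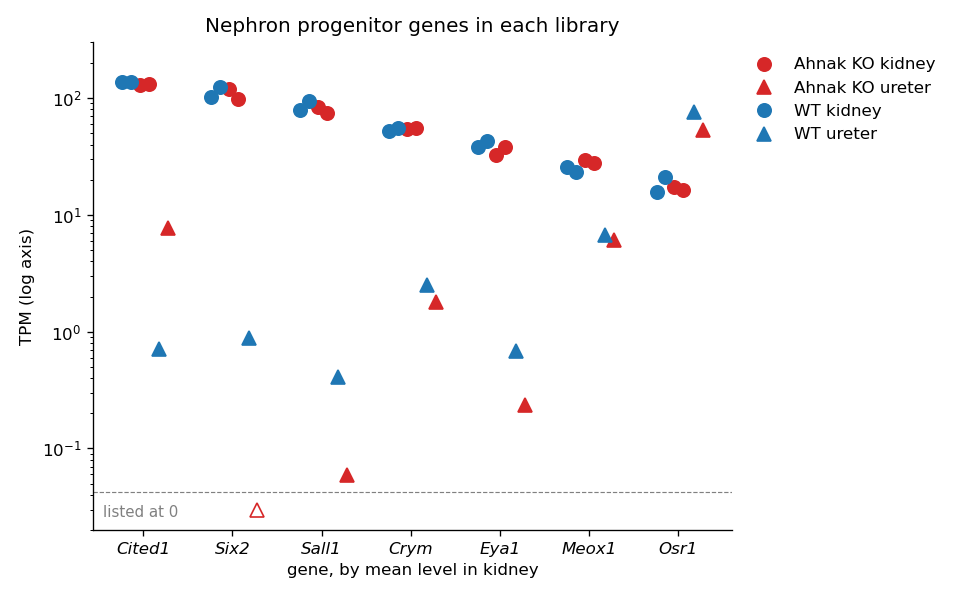
Expression level of each of the 7 genes (TPM, log axis) in each of the 6 libraries, with circles for kidney, triangles for ureter, blue for WT and red for Ahnak KO. The open triangle under the dashed line is Six2 in the Ahnak KO ureter, which is listed at 0. The kidney libraries of each gene lie close together, Osr1 alone is higher in ureter, and Cited1 is the gene that lies well above its WT value in the Ahnak KO ureter, at 7.74 against 0.710 TPM.

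Osr1 made up 3.46% to 4.20% of the summed TPM of the 7 genes in the kidney libraries and 86.3% in the WT and 76.9% in the Ahnak KO ureter. Cited1 and Six2, which together led in kidney with shares of 27.5% to 30.5% and 22.3% to 25.7%, had 0.812% and 1.004% in the WT ureter. In the Ahnak KO ureter the share of Cited1 was 11.3%. The summed level fell with this change of makeup, to 87.5 TPM in the WT and 68.8 TPM in the Ahnak KO ureter.

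**Figure D2:**
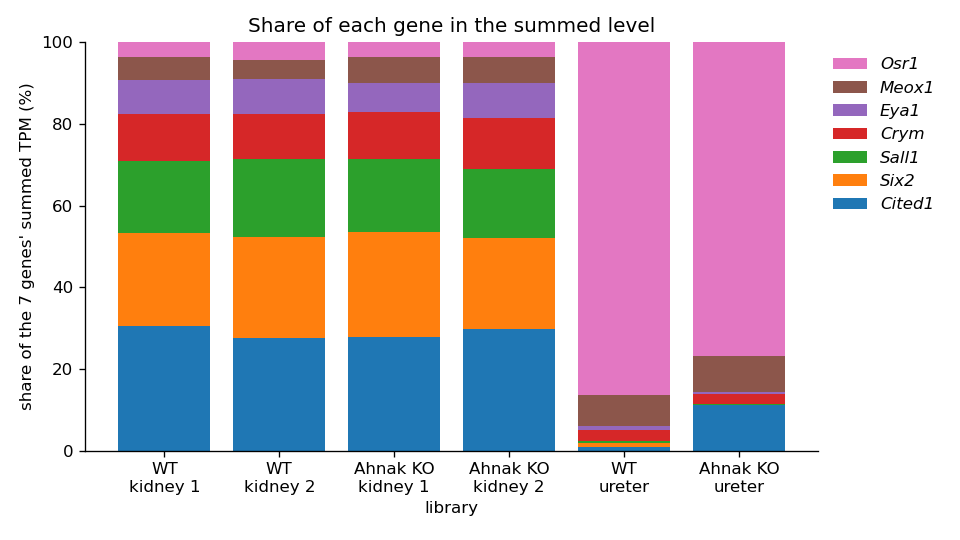
Share of each gene in the summed TPM of the 7 genes (%, bars from 0 to 100) in each library. The 4 kidney bars are divided almost alike, with Osr1 at 3.46% to 4.20%, while Osr1 fills 86.3% of the WT and 76.9% of the Ahnak KO ureter bar.

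To compare the tissues, the 4 kidney and 2 ureter libraries were tested in one fit with genotype as a term. All 7 genes passed at an adjusted p under 0.05 (edgeR's quasi-likelihood test), 6 of them higher in kidney, where 23.7% of all 16873 genes tested were called, and 1 higher in ureter, where 21.4% were called. The median log2 fold change of kidney over ureter was 4.73 for the 7 genes and 0.08 for all genes tested. Osr1 was the gene that was higher in ureter. The p-values measure the spread between these libraries, since the labels do not tie them to separate animals and the methods name biological replicates without the tissue.

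Among the homeobox and partner genes, Six2 had 7147 and 7451 counts in WT kidneys, 7134 and 5960 in Ahnak KO kidneys, 55 in the WT ureter and 0 in the Ahnak KO ureter. The WT ureter level was 0.982% of the kidney mean in CPM, or 102-fold lower. The fitted log2 fold change was 7.58 (SE 0.77, adjusted p = 0.000526 from edgeR), and since 1 ureter library is at 0 its size depends on the added prior count: it was 6.70 without the Ahnak KO ureter and 15.59 without the WT ureter. Eya1 had 5435 and 5238 counts in WT kidneys, 3977 and 4711 in Ahnak KO kidneys, 87 in the WT and 20 in the Ahnak KO ureter, a log2 fold change of 6.02 (SE 0.31, adjusted p = 4.1e-05 from edgeR), which was 6.75 without the WT ureter. Meox1 was the least separated of the genes higher in kidney, with 1873 and 1462 counts in WT kidneys, 1849 and 1766 in Ahnak KO kidneys, 443 in the WT and 260 in the Ahnak KO ureter. Its level in the WT and Ahnak KO ureters was 31.5% and 32.1% of the kidney mean, and its log2 fold change was 1.66 (SE 0.15, adjusted p = 0.000347 from edgeR).

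The 2 zinc finger genes went in opposite directions. Sall1 had the largest difference of the 7 in the edgeR fit, while with DESeq2, with limma and without the WT ureter that of Six2 was larger. Sall1 had 13815 and 14139 counts in WT kidneys, 12278 and 11181 in Ahnak KO kidneys, 64 in the WT and 7 in the Ahnak KO ureter. Its log2 fold change was 8.07 (SE 0.49, adjusted p = 7.1e-05 from edgeR), and 97.5% of all genes tested had a smaller value. It was 7.42 without the Ahnak KO ureter and 9.69 without the WT ureter. Osr1 had 1038 and 1197 counts in WT kidneys, 978 and 933 in Ahnak KO kidneys, 4476 in the WT and 2069 in the Ahnak KO ureter. In CPM this was 5.33 times the kidney mean in the WT and 4.28 times in the Ahnak KO ureter, and the log2 fold change was -2.24 (SE 0.15, adjusted p = 9.2e-05 from edgeR). Osr1 is also known from mesenchyme outside the nephron lineage, and both of its ureter values lay above all 4 kidney values.

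Cited1 had 4227 and 3597 counts in WT kidneys, 3368 and 3515 in Ahnak KO kidneys, 24 in the WT ureter and 153 in the Ahnak KO ureter. Both ureters were below every kidney, by 123-fold in the WT and 11.2-fold in the Ahnak KO ureter in CPM. The log2 fold change was 4.73 (SE 0.79, adjusted p = 0.00421 from edgeR), with 6.98 without the Ahnak KO ureter and 3.48 without the WT ureter. Crym had 2163 and 1976 counts in WT kidneys, 1911 and 2003 in Ahnak KO kidneys, 93 in the WT and 45 in the Ahnak KO ureter. The ureters held 5.72% and 4.80% of its kidney mean, and its log2 fold change was 4.26 (SE 0.18, adjusted p = 2.2e-05 from edgeR). In 7 of the 7 genes the kidney and ureter libraries did not overlap in CPM, as in 61% of all genes tested.

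**Figure D3:**
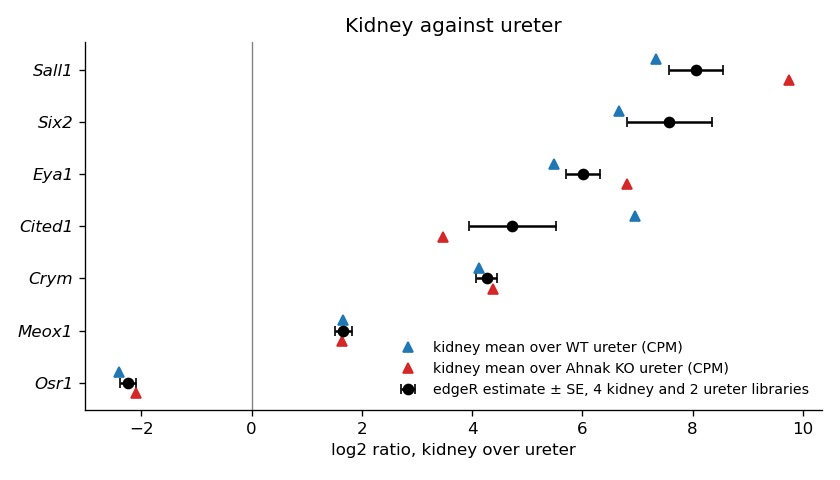
Log2 ratio of kidney over ureter for each of the 7 genes. Black points are edgeR estimates with standard errors over 4 kidney and 2 ureter libraries, and triangles give the mean kidney CPM over the CPM of the WT (blue) or Ahnak KO (red) ureter, with no red triangle for Six2, which is listed at 0 there. Osr1 lies left of 0 at -2.24, the other 6 lie between 1.66 and 8.07, and the WT and Ahnak KO triangles are farthest apart for Cited1.

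Several marker lists moved with this comparison: the urothelium and smooth muscle sums above were higher in both ureters, and the proximal tubule, loop and podocyte sums were lower. Their part in the values of the 7 genes was not tested. In both ureter libraries 3 of 6 proximal tubule markers (Slc34a1, Slc22a6 and Slc5a2), 5 of 6 loop and distal tubule markers, 3 of 6 collecting duct markers (Aqp2, Avpr2 and Atp6v1b1) and the podocyte gene Nphs1 were listed at 0. Other genes of these lists had counts in the WT ureter, with 171 for Cubn, 31 for Lrp2 and 30 for Slc27a2 of the proximal tubule, 2131 for the podocyte gene Podxl and 892 for the collecting duct gene Hsd11b2, beside 55 for Six2, 64 for Sall1 and 87 for Eya1.

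Other genes of the nephrogenic zone were read beside the 7 genes. Of 17 other progenitor genes, 14 were called higher in kidney, 1 higher in ureter and 2 were not called, with a median log2 fold change of 2.8. The largest were Fgf20 (8.55, listed at 0 in both ureters and at 39 to 70 counts in kidney), Uncx (7.21, 61 counts in the WT and 0 in the Ahnak KO ureter), the RET ligand Gdnf (6.87, SE 0.35, 40 and 9 counts) and the MYC family gene Mycn (5.33, SE 0.32, 42 and 44 counts). Dapl1 was the gene that was higher in ureter (-3.30), with 72 to 147 counts in the kidneys and 891 and 450 in the WT and Ahnak KO ureters.

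Of 15 genes of committed nephron structures, such as renal vesicles, 11 were called higher in kidney and 1 higher in ureter, with a median of 2.54. Lhx1, Dkk1 and Fgf8 led and were listed at 0 in both ureters, and Pax8 followed at 4.43. Of 12 genes of signals around the niche, 8 were called higher in kidney and 0 higher in ureter (median 0.86), led by Wnt9b (7.47, 0 counts in the Ahnak KO ureter), the receptor gene Ret (4.37), Gfra1 (3.45) and Npnt (2.82). The 4 niche genes that were not called included the stromal factor gene Foxd1 at -0.18. Of 14 paralogs of the 7 genes, 11 could be tested, 4 were called higher in kidney and 0 higher in ureter (median 0.58), with Sall3 at 6.78, Sall2 at 1.87, Osr2 at 1.62 and Eya4 at 0.65. Osr2 was therefore higher in kidney while Osr1 was higher in ureter.

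**Figure D4:**
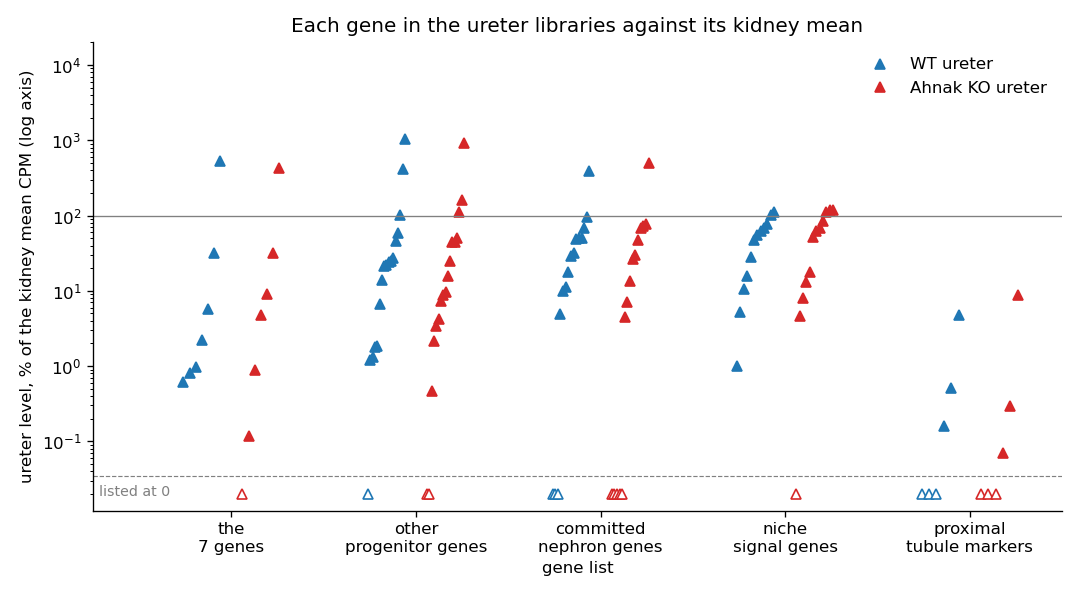
Level of each gene in the WT (blue) and Ahnak KO (red) ureter as a percentage of its mean kidney level in CPM (log axis), for the 7 genes and 4 further lists, 1 triangle per gene. Open triangles under the dashed line are listed at 0, and the solid line marks 100%. Of the 7 genes only Osr1 lies above 100% in both ureters, and Dapl1 is the highest point of the other progenitor genes.

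The genes whose pattern over the 6 libraries was most like that of Six2, by Pearson's r on log2(CPM + 0.5) among 14589 genes with a mean of at least 1 CPM, included Blm, Sv2a, Veph1 and Cdh16, with r from 0.9996 to 0.9998. Sv2a had 1050 and 962 counts in WT and 913 and 893 in Ahnak KO kidneys, 243 in the WT and 96 in the Ahnak KO ureter. Among the other members, r with Six2 was 0.999 for Sall1, 0.997 for Eya1, 0.993 for Crym, 0.975 for Meox1, 0.891 for Cited1 and -0.963 for Osr1. The libraries fall into kidney and ureter clusters, so these r values over 6 libraries describe that split and carry no test.

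To ask whether the progenitor genes depended on genotype in kidney, the 2 Ahnak KO were compared with the 2 WT libraries. None of the 7 genes was called at an adjusted p under 0.05 by edgeR, where 0.0121% of all 16481 genes tested were called. At an unadjusted p under 0.05 the count was also 0 of 7, beside 1.38% of all genes, and DESeq2 and limma likewise gave 0 of 7 at an adjusted and at an unadjusted p. The log2 fold changes of Ahnak KO over WT lay between -0.16 and 0.26, with a median of -0.04, beside 0.00 for all genes. The adjusted p was 0.9999 for each of the 7 genes.

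The genotypes overlapped in CPM in 6 of the 7 genes, and 1 of 7 did not overlap, beside 26.2% of all genes tested. That gene was Meox1, with 30.6 and 29.6 CPM in Ahnak KO kidneys and 26.2 and 23.8 CPM in those of WT mice. The log2 fold change of Ahnak KO over WT was 0.26 (SE 0.13, unadjusted p = 0.0933 from edgeR), which did not pass the test. Six2 gave -0.03 (SE 0.14), Cited1 -0.04 (SE 0.12), Sall1 -0.12 (SE 0.12), Eya1 -0.16 (SE 0.14), Osr1 -0.10 (SE 0.20) and Crym 0.06 (SE 0.13). Cited1 is X-linked, and its level of 130.1 TPM in Ahnak KO kidney replicate 1, the library with Xist, lay within 3 TPM of the 132 TPM in Ahnak KO kidney replicate 2. Red blood cell markers (highest Hba-a1) summed to 1022 TPM in Ahnak KO kidney replicate 1 and to 32.1 to 52.8 TPM in the other 3 kidneys, and their part in these values was not tested. Without that replicate, and without each other kidney library in turn, 0 of the 7 genes was called.

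The neighbouring lists gave 0 calls in kidney as well, over 17 other progenitor genes (median -0.02, 1 gene at an unadjusted p under 0.05), 15 committed nephron genes (median -0.09, 1 gene), 12 niche signal genes (median 0.03, 0 genes) and 11 paralogs (median -0.05, 0 genes). DESeq2 and limma likewise called 0 genes of these 4 lists. The largest values were those of Fgf20 (-0.53) and Dapl1 (0.39) among the progenitor genes and Hes5 (-0.92) and Lhx1 (-0.34, unadjusted p = 0.0364 from edgeR) among the committed genes. Foxd1 (0.24) and Wnt9b (-0.19) led the niche genes, and Cited4 (0.65) and Osr2 (-0.24) the paralogs.

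**Figure D5:**
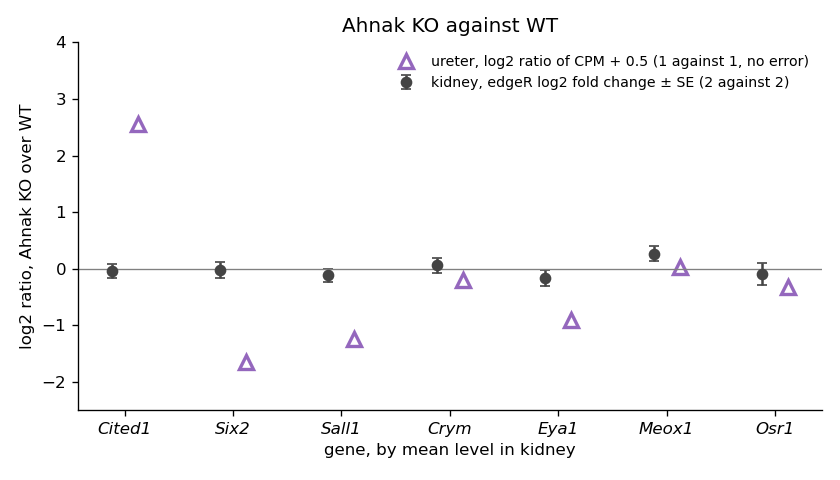
Log2 ratio of Ahnak KO over WT for each of the 7 genes. Grey circles are edgeR estimates in kidney with standard errors (2 against 2 libraries), and open triangles are the log2 ratios of CPM + 0.5 in ureter (1 against 1, no error). The kidney values lie between -0.16 and 0.26, while the ureter values run from -1.66 for Six2 to 2.55 for Cited1.

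In ureter, 1 Ahnak KO library was compared with 1 WT library, so the differences have no replicate check and no test of genotype. On log2(CPM + 0.5), which understates the change of low genes, 2 of the 7 genes were more than 2-fold lower in the Ahnak KO library, beside 6.27% of 16117 genes with at least 10 counts in either ureter, and 1 was more than 2-fold higher, beside 4.91%. The median log2 ratio of the 7 genes was -0.32 and that of all genes -0.01. Intervals below are exact binomial 95% intervals of the reads and cover counting error only.

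Six2 had 0 counts in the Ahnak KO ureter and 55 in the WT ureter, a log2 ratio of -1.66. Sall1 had 7 and 64 counts, a log2 ratio of -1.25, and was 5.27-fold lower in CPM (2.42 to 13.6). Eya1 had 20 and 87 counts, a log2 ratio of -0.90, and was 2.51-fold lower in CPM (1.53 to 4.31). With a pseudocount of 0.1 in place of 0.5 its log2 ratio was -1.21, and 3 of the 7 genes were then more than 2-fold lower. Over all genes the number more than 2-fold lower also rose, from 1010 with 0.5 to 1638 with 0.1. Six2, Sall1 and Eya1 were low in both ureters and lower in the Ahnak KO library.

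Cited1 went the other way. It had 153 counts in the Ahnak KO and 24 in the WT ureter, a log2 ratio of 2.55, and was 11.1-fold higher in CPM (7.16 to 17.8). Osr1, the most abundant of the 7 in ureter, had a log2 ratio of -0.32 and was 1.25-fold lower (1.18 to 1.31). Meox1 had 8.83 CPM in the Ahnak KO and 8.68 CPM in the WT ureter, and Crym had 1.53 and 1.82 CPM. The counting intervals of the Ahnak KO to WT ratio included 1 for both, at 0.870 to 1.19 for Meox1 and 0.574 to 1.21 for Crym.

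Other measures moved between the same 2 libraries. Striated muscle markers summed to 169 TPM in the Ahnak KO (highest Ckm) and 450 TPM in the WT ureter (highest Actc1), red blood cell markers to 1471 and 204 TPM, and the ribosomal gene Rn45s took 8.06% and 0.626% of the counts. Their part in the ureter ratios was not tested. Among the other progenitor genes 4 of 16 were more than 2-fold lower and 1 higher, among the committed nephron genes 2 of 12 were lower and 0 higher, among the niche genes 0 of 12 were lower or higher, and among the paralogs 0 of 10 were lower and 1 higher.

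Whether the genotype difference itself differed between the tissues was tested by an interaction term over all 6 libraries. In that fit the spread comes from the kidney libraries alone, and the lone ureter libraries were assumed to vary like them. Of the 7 genes, 1 passed at an adjusted p under 0.05 (edgeR), beside 0.108% of 17557 genes, and 4 had an unadjusted p under 0.05, beside 12.4% of all genes. Cited1 was the gene that passed, with a difference of the log2 fold changes, ureter minus kidney, of 3.50 (SE 0.25, adjusted p = 0.0188 from edgeR). The call was lost without WT kidney replicate 1 (adjusted p = 0.111) and without WT kidney replicate 2 (adjusted p = 0.101), and with limma on FPKM or TPM (adjusted p = 0.109 to 0.175).

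Six2 gave -8.87 (SE 0.997, adjusted p = 0.0581 from edgeR), a size that depends on the prior count added to its 0. It was called with DESeq2 (adjusted p = 0.0185) and without either Ahnak KO kidney library (adjusted p = 0.0147 and 0.00665). Sall1 gave -2.27 (SE 0.35, adjusted p = 0.105 from edgeR) and was called with DESeq2 and without Ahnak KO kidney replicate 2. Eya1 gave -1.17 (SE 0.33, adjusted p = 0.269 from edgeR). Meox1, Osr1 and Crym gave -0.24, -0.23 and -0.32, with adjusted p of 0.734 to 0.848 from edgeR.

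Among the other progenitor genes, Uncx was called in this test and Hoxc11 (-3.37) was the next in size. Of these 17 genes DESeq2 called 3 and limma 0. An unadjusted p under 0.05 from edgeR was found for 8 of the 17, beside 12.4% of all genes. Uncx, a homeobox gene of the cap mesenchyme, had 6822 and 5838 counts in WT and 5504 and 5116 in Ahnak KO kidneys, 61 in the WT ureter and 0 in the Ahnak KO ureter, and gave -8.93 (SE 0.73, adjusted p = 0.0317 from edgeR). The Uncx call was lost without WT kidney replicate 1 (adjusted p = 0.134) and without WT kidney replicate 2 (adjusted p = 0.116), and with limma, where the size fell to between -0.47 and -2.48 (adjusted p = 0.180 to 0.312). Among the committed genes, Pou3f3 was called and Hes5 (-6.95) was next. Of these 15 genes DESeq2 called 1 and limma 0, with 3 at an unadjusted p under 0.05 from edgeR. Pou3f3, a POU factor of the developing tubule, had 4122 and 3953 counts in WT and 3470 and 3398 in Ahnak KO kidneys, 970 in the WT ureter and 0 in the Ahnak KO ureter, and gave -12.93 (SE 0.55, adjusted p = 0.0044 from edgeR). The Pou3f3 call was lost with limma, where the size was between -2.62 and -5.72 (adjusted p = 0.109 to 0.166). Of its neighbours, Pantr1 had 0 counts in the WT and 59 in the Ahnak KO ureter and 2900092D14Rik had 207 and 92. Pantr1 was also called in this test by edgeR, in the other direction (9.74, a size that depends on the prior count). How reads were divided among these genes was not tested. By edgeR, DESeq2 and limma 0 niche genes and 0 paralogs were called, with 1 and 3 at an unadjusted p under 0.05 from edgeR. Wnt9b (-6.93) and Wnt11 (-0.59), and Sall3 (6.41) and Cited4 (-1.62), were the largest. The sizes for Hes5, Wnt9b and Sall3 also depend on the prior count added to a 0. In the Ahnak KO and WT ureters Hes5 had 0 and 27 counts, Wnt9b 0 and 16 and Sall3 5 and 0.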

How the data were processed

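Members were taken by symbol. The genes, lists, motifs and tests were chosen with earlier results of these data known. The authors deposited 1 table with an estimated count (given as a whole number), FPKM and TPM per gene and library. The counts are not normalized, and FPKM and TPM were scaled by the authors for depth and gene length. The methods name TruSeq Stranded mRNA libraries run on a HiSeq2500, then Cutadapt 2.8, STAR 2.7.1a, Cufflinks 2.2.1 and the GRCm39 genome, while the submitters' processing notes name Trimmomatic 0.38, HISAT2 2.1.0, StringTie 1.3.4b, edgeR and R 3.6.1, and the table carries the mm10 build. The conflict was not resolved, and coordinates and promoters are those of RefSeq for GRCm38.

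A test planned for read counts was run on the deposited estimated counts, with edgeR 4.0.16 in R 4.3.3 (TMM factors, filterByExpr, quasi-likelihood F test, Benjamini-Hochberg adjustment over all genes tested). Standard errors were approximated from each estimate and its F statistic (absolute estimate over root F). Kidney libraries alone entered the genotype test, and all 6 entered the tissue test, with genotype as a term, and the interaction. Ureter ratios used CPM with TMM factors over all 6 libraries and a pseudocount of 0.5. Alternatives were DESeq2 1.42.0 (size factors and Wald test), limma 3.58.1 on log2(FPKM + 1), log2(FPKM + 0.1) and log2(TPM + 1), other filters, Rn45s left out, other sets of libraries, a replicate block and leaving out each library. Other steps ran in Python 3.11.15. The edgeR fits were also run on simulated counts with 200 changed genes. Those counts had less spread between libraries than was fitted to the real data, so they do not give the power of these tests.

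Every member and Ahnak are named. From the other progenitor, committed nephron, niche signal and paralog lists, the 4 largest absolute log2 fold changes among called genes are named, or the 2 largest among those tested where fewer were called. Of the 5 genes most correlated with Six2, 4 are named too, and 1 gene there and 1 of the progenitor and paralog lists are not reported here. Pantr1, 2900092D14Rik, Gm3134, Dapl1 in the tissue comparison and the further ureter markers were named after their values were seen. Same-numbered kidney libraries deviated from their genotype means with r = -0.193, and the labels do not say that the numbers pair them.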

Additional observations from a re-analysis of the deposited data

Results flagged for a closer look

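The genotype difference of 3 named genes differed between ureter and kidney by a test of the difference itself, an interaction term in edgeR's quasi-likelihood test with Benjamini-Hochberg adjustment. Cited1 gave 3.50 on the log2 scale, ureter minus kidney (adjusted p = 0.0188), with 153 counts in the Ahnak KO and 24 in the WT ureter. Uncx gave -8.93 (adjusted p = 0.0317) with 0 and 61 counts, and Pou3f3 gave -12.93 (adjusted p = 0.0044) with 0 and 970 counts. Each call was lost with limma (adjusted p up to 0.175 for Cited1, 0.312 for Uncx and 0.166 for Pou3f3), and those of Cited1 and Uncx also without either WT kidney library (adjusted p = 0.101 and 0.111 for Cited1, 0.116 and 0.134 for Uncx). Each of these rests on 1 ureter library per genotype, and the sizes for Uncx and Pou3f3 depend on the prior count added to a 0. Pantr1, a neighbour of Pou3f3, was called in the other direction (9.74), and how reads were divided between them was not tested. Groups of 1 or 2 libraries are too small for a check for single samples far from the rest.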

How the results depend on the processing

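In the tissue comparison all 7 genes kept their direction and their call under every alternative that could test them (5 of 7 with at least 10 counts in every library). Genes called higher in kidney rose from 3992 to 6360 with limma on log2(FPKM + 1), 6557 on log2(FPKM + 0.1) and 7379 on log2(TPM + 1), and fell to 2301 with only the libraries that share column numbers, an alternative added after the data were seen. Genes called higher in ureter changed from 3603 to 2308 on log2(TPM + 1). The share of calls that were higher in kidney was 52.6% in edgeR and 71.6% to 76.2% with limma, where the median of all genes shifted by 0.17 to 0.28. Without each library in turn, the genes called were 2710 to 3573 higher in kidney and 2448 to 3320 higher in ureter.

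In kidney, Ahnak KO against WT, genes called higher and lower were 0 and 2 in edgeR, 25 and 19 with the DESeq2 Wald test, 0 and 0 with limma on log2(FPKM + 1), log2(FPKM + 0.1) or log2(TPM + 1), and 0 and 1 with at least 10 counts in every library. They were 0 and 0 with the replicate block and 0 and 1 with a crossed replicate block, which was added after the data were seen. Leaving out each library gave 1 to 24 higher and 2 to 63 lower, with the 24 and 63 without Ahnak KO kidney replicate 2. No setting called any of the 7 genes. On leaving out each library the log2 fold change ran from -0.16 to 0.12 for Six2, from -0.093 to 0.0049 for Cited1, from -0.30 to 0.13 for Osr1 and from -0.25 to 0.013 for Sall1, so that these 4 changed sign.

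For the genotype difference between tissues, more positive and more negative calls were 9 and 10 in edgeR, 200 and 279 with DESeq2, 0 and 0 with limma on each of the 3 scales, where the median of all genes shifted by -0.11 to -0.17, and 9 and 6 with at least 10 counts in every library. Members called were 1 in edgeR, 3 with DESeq2 and 0 with limma. Leaving out each kidney library gave 2 to 145 more positive calls, 2 to 125 more negative calls and 0 to 3 members, with the 145, 125 and 3 without Ahnak KO kidney replicate 2. In ureter every alternative gave 1 member more than 2-fold higher and 2 or 3 more than 2-fold lower. Over all genes the alternatives gave 543 to 1150 higher and 1026 to 2001 lower. A scaling by library size alone moved the median of all genes from -0.01 to -0.20. It moved the share of past-2-fold genes that were lower in Ahnak KO from 56.1% to 70.7%. The causes were not tested. Estimates near 0 limit Six2, Sall1 and Eya1 in ureter, and Cited1 in the WT ureter, where it had 24 counts. Having 1 ureter library per genotype limits every ureter value.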
